A study of Mus musculus with 12 samples.

Results

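The C1q/TNF-related proteins are a family of secreted proteins built from a collagen-like stalk and a globular head of the C1q type, the same plan as the fat hormone adiponectin. They assemble into trimers and larger multimers and act outside the cell, and family members have been studied as hormones of metabolism, as matrix proteins and as modulators of inflammation. Mesenchymal stem cells (MSCs) are stromal cells that can form bone, cartilage and fat, and transforming growth factor beta 1 (TGF-β1) drives them toward contractile, matrix-producing myofibroblasts.

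Messenger RNA of mouse bone marrow MSCs was sequenced in 4 groups of 3 libraries. All cells were commercial MSCs of strain C57BL/6 kept in DMEM, and the groups were untreated cells, cells given TGF-β1 at 5 ng/mL, and cells given TGF-β1 together with the culture supernatant of either M-MDSCs or G-MDSCs. MDSCs are myeloid-derived suppressor cells, immature myeloid cells that dampen immune responses, and M and G are their monocytic and granulocytic kinds. The MDSCs were induced from C57BL/6 bone marrow cells with GM-CSF and IL-6, sorted by surface markers and cultured in an RPMI-based medium. The sources used here name no group given that medium without MDSCs and do not say what the other groups received in its place, so the medium and what the MDSCs released into it cannot be told apart here.

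The members were C1qtnf1, C1qtnf2, C1qtnf3, C1qtnf5, C1qtnf6 and C1qtnf7, taken from the deposited table by their symbols, that is 6 of 55401 genes. The family was selected on the TGF-β1 and untreated values of C1qtnf3, which is among the largest rises with TGF-β1, so the TGF-β1 and untreated values are given below as a description without a test. Of the 6 members, C1qtnf1, C1qtnf3, C1qtnf5 and C1qtnf6, that is 4, were among the 12016 genes that reached 1 FPKM (a read level corrected for the length of a gene's exons and for sequencing depth) in at least 3 of the 12 libraries. The other two, C1qtnf2 and C1qtnf7, were not tested.

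Libraries held 73977669 to 84565450 counts in all. Of the surface markers by which the study checked its MSCs, Cd44, Itgb1 (CD29) and Ly6a (Sca-1) were expressed in every library, with a summed level of 448 to 545 FPKM, while Kit (CD117) and Pecam1 (CD31) summed to at most 0.218 FPKM. Ly6a was not constant, with means of 245 FPKM in untreated cells, 16.2 with TGF-β1, 92.5 in the M-MDSC group and 66.9 in the G-MDSC group. A list of 6 kidney tubule genes stands for a tissue not in this culture, namely Kap, Slc34a1, Lrp2, Cubn, Umod and Miox. These genes summed to at most 0.593 FPKM in the untreated and TGF-β1 libraries. Their sum was 12.3 to 78.2 FPKM with M-MDSC and 43.1 to 57.0 FPKM with G-MDSC supernatant, most of it Kap. Of these 6 genes, 4 were at 0 in all untreated libraries, 3 in all TGF-β1 libraries and none in all libraries of either supernatant group. The labels do not say whether the 3 libraries of a group were separate cultures, so p-values measure the spread between these libraries, which may be technical.

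C1qtnf3, also called cartducin or cartonectin, was first known from growth plate cartilage, where it acts on chondrocyte precursors, and is also made by fat. The gene lies on the forward strand of chr15:10952332-10980150 (GRCm38). The 250 bases before its RefSeq start, and those before the start of C1qtnf6, the member that changed least with TGF-β1, are shown because C1qtnf3 had the largest change with TGF-β1 and C1qtnf6 the smallest among the tested members. Capitals mark matches, on either strand, to CAGAC, the core of the SMAD-binding CAGA box, to GGAATG, a TEAD motif, and to TGANTCA, the AP-1 motif, so that GTCTG is CAGAC read from the other strand. These motifs do not overlap each other, and they were chosen after the files had been seen.
C1qtnf3 (GRCm38.p6, chr15:10952082-10952331, forward strand): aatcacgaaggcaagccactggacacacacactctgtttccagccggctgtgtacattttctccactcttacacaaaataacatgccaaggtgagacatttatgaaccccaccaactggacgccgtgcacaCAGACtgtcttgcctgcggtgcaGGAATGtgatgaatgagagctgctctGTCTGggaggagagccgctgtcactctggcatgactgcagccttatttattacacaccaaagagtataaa
C1qtnf6 (GRCm38.p6, chr15:78529652-78529901, reverse strand): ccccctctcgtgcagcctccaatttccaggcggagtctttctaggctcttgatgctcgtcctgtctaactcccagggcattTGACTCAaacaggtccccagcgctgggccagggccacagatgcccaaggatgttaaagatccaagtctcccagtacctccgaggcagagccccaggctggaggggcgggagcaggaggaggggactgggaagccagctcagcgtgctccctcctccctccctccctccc

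RefSeq promoter windows, 250 bases before to 50 bases after the start, were matched for 5 of the 6 members, and C1qtnf1 had no entry. The C1qtnf3 window held CAGAC at positions -119 and -70 and GGAATG at -96, counted from the start. Among 32817 promoter windows of the same length, 49.6% held CAGAC at least once and 16.2% at least 2 times, 14.7% held GGAATG and 7.8% held TGANTCA. The C1qtnf5 window, which lies at the 5′ end of the neighbouring gene Mfrp, held CAGAC at -211 and GGAATG at -123. The C1qtnf6 window held only TGANTCA, at -169. The motifs were also present in members with hardly any reads: the C1qtnf7 window held CAGAC at 35 and GGAATG at -177, and the C1qtnf2 window held CAGAC at -228. These matches describe the letters in the windows, and binding was not measured.

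In untreated MSCs, C1qtnf3 was present at 2.35, 2.34 and 2.89 FPKM. With TGF-β1 it stood at 46.1, 49.0 and 46.7 FPKM. The 3 TGF-β1 libraries lay close together and far above all 3 untreated ones, at 47.3 ± 1.53 against 2.53 ± 0.317 FPKM (mean ± SD, n = 3), which is an 18.7-fold difference. On the log2 scale of the count model the difference was 4.28, the rank 17 rise among 12016 genes. Because bulk RNA was measured, more cells expressing a gene and more RNA per cell cannot be told apart here or in the comparisons that follow.

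**Figure D1:**
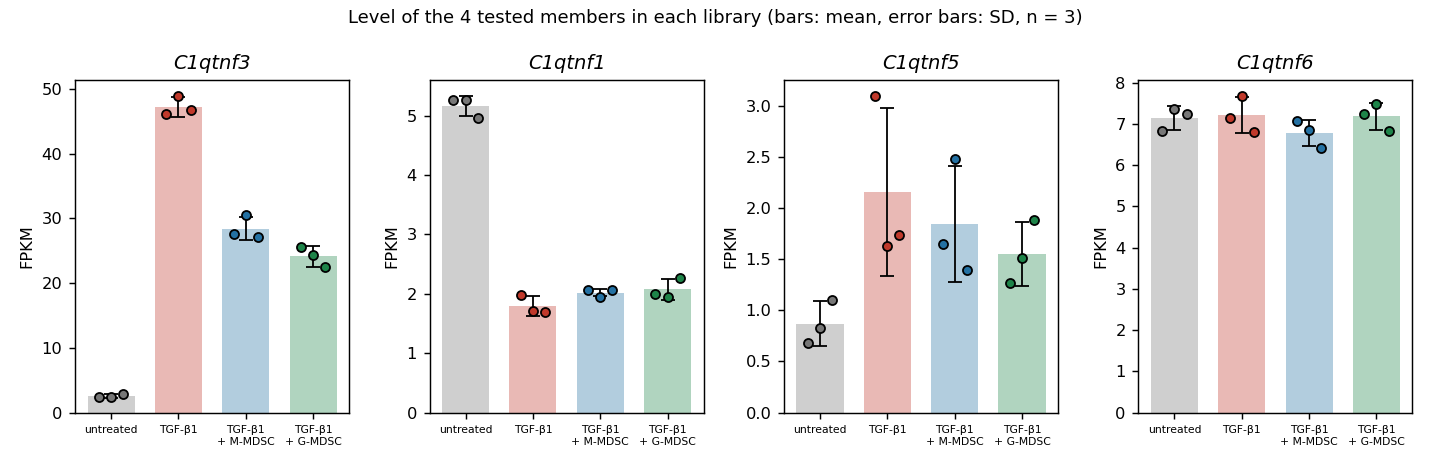
Levels of C1qtnf1, C1qtnf3, C1qtnf5 and C1qtnf6 in FPKM (y axis from 0, one panel per gene) in the 4 groups (x axis), where points are libraries, bars are group means and error bars the SD of 3 libraries. C1qtnf3 separates the 4 groups, from 2.53 FPKM in untreated cells to 47.3 FPKM with TGF-β1, with both supernatant groups between them, while the group means of C1qtnf6 lie between 6.79 and 7.22 FPKM.

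With either supernatant added to TGF-β1, C1qtnf3 was lower than with TGF-β1 alone. It was measured at 27.5, 30.5 and 27.2 FPKM with M-MDSC supernatant. With G-MDSC supernatant it was measured at 25.5, 24.4 and 22.5 FPKM. No library of either supernatant group reached the level of any TGF-β1 library, and none fell near the untreated level. Across all genes, edgeR's quasi-likelihood test gave a log2 fold change of -0.76 (SE 0.084, 95% interval -0.94 to -0.57, adjusted p = 0.000289) for M-MDSC supernatant against TGF-β1. For G-MDSC supernatant against TGF-β1 the same edgeR test gave -0.996 (SE 0.084, 95% interval -1.18 to -0.81, adjusted p = 3.37e-05). Both tests use the TGF-β1 libraries that also entered the contrast by which C1qtnf3 was chosen.

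Of the difference in mean FPKM between TGF-β1 and untreated cells, the M-MDSC supernatant group kept 57.8% and the G-MDSC supernatant group 48.3%, the individual libraries ranging from 55.2% to 62.4% and from 44.6% to 51.4%. Set against untreated cells, C1qtnf3 remained 11.2-fold higher with M-MDSC and 9.55-fold higher with G-MDSC supernatant. Between the supernatants, all 3 M-MDSC libraries were above all 3 G-MDSC libraries, at 28.4 ± 1.79 and 24.1 ± 1.56 FPKM (SD, n = 3). The difference of 0.24 on the log2 scale (SE 0.084, 95% interval 0.054 to 0.42) did not pass edgeR's test across all genes (adjusted p = 0.639).

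C1qtnf3 was the only member called in either comparison with TGF-β1. That was 1 of 4 tested members for M-MDSC supernatant, where 4.78% of all tested genes were called, and 1 of 4 for G-MDSC supernatant, where 5.56% were called. In a direct comparison of the supernatants 0 of 4 members passed in edgeR, DESeq2 or limma, and 0.125% of all tested genes were called. Only C1qtnf3, 1 of 4, had an unadjusted edgeR p under 0.05 there, as had 6.33% of all tested genes. By a rule of a fold above 2 with an unadjusted p under 0.05, which called 2.18% of all tested genes for M-MDSC and 2.17% for G-MDSC supernatant against TGF-β1, 0 of 4 members were called in either comparison. C1qtnf3 was also the only tested member whose libraries did not overlap between groups in each of these 3 comparisons. Over all tested genes, 10.6% were lower without overlap with M-MDSC supernatant than with TGF-β1, 9.55% were lower without overlap with G-MDSC supernatant than with TGF-β1, and 5.97% were higher without overlap in the M-MDSC than in the G-MDSC group. The median log2 fold change of the 4 tested members was -0.18 with M-MDSC and -0.26 with G-MDSC supernatant, against -0.013 and -0.014 over all tested genes. These medians lie between the values of C1qtnf5 and C1qtnf6, neither of which was called, and C1qtnf1 had positive values. No shift of the family is read from them.

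**Figure D2:**
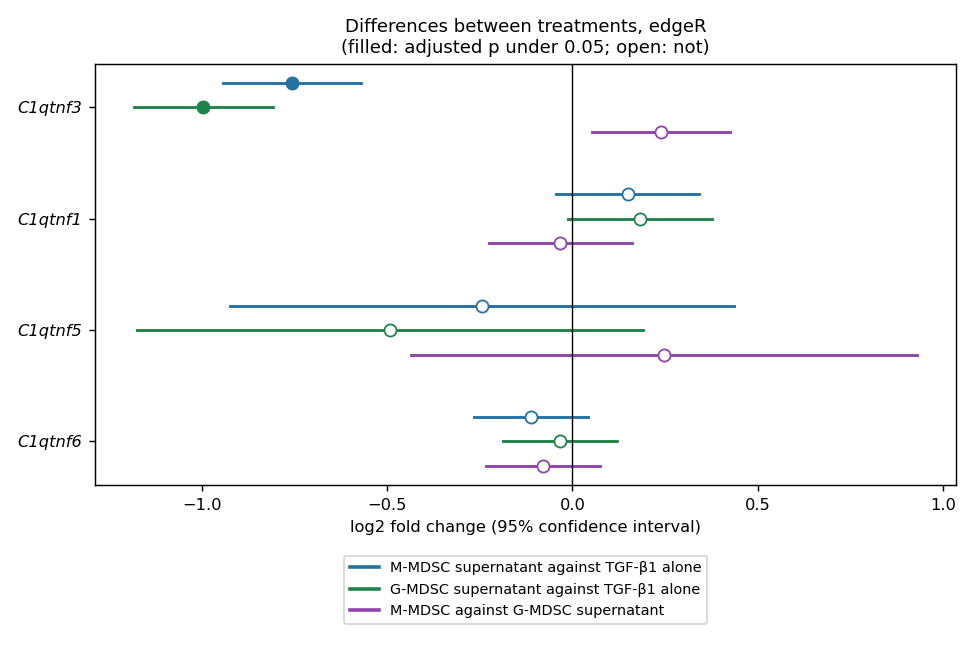
Log2 fold changes (x axis) of the 4 tested members (y axis) for each supernatant against TGF-β1 alone and for M-MDSC against G-MDSC supernatant, with bars for the 95% interval and filled points where the adjusted p was under 0.05. The intervals of C1qtnf3 lie wholly below 0 against TGF-β1, at -0.76 and -0.996, with an open point above 0 between the supernatants, while those of C1qtnf1, C1qtnf5 and C1qtnf6 cross 0 in all 3 comparisons.

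Other cells' markers were read beside the C1qtnf3 values. The summed level of the kidney tubule genes given above was high in the same supernatant libraries in which C1qtnf3 was lower than with TGF-β1. Most of it was Kap, with means of 30.5 and 45.2 FPKM with M-MDSC and G-MDSC supernatant. Cubn did not follow the sum, with means of 0.394, 0.454, 0.386 and 0.432 FPKM in the untreated, TGF-β1, M-MDSC and G-MDSC groups. The sum was highest in M-MDSC replicate 3, where C1qtnf3 was 27.2 FPKM. Without that library the log2 fold change of C1qtnf3 against TGF-β1 was -0.73 (edgeR, adjusted p = 0.00229). The remaining M-MDSC libraries still held these genes, since Kap was at least 9.20 FPKM in every library of the group. That value therefore cannot separate these genes from the C1qtnf3 difference. A list of 10 myeloid genes summed to 26.9 to 27.9 FPKM in untreated cells, 13.6 to 15.8 with TGF-β1, 20.5 to 25.9 with M-MDSC and 25.8 to 29.3 with G-MDSC supernatant. Of the 10 genes, 4 were at 0 in all untreated libraries, 3 in all TGF-β1 libraries and none in all libraries of a supernatant group, and the pan-leukocyte marker Ptprc (CD45) had at most 26 counts in any library. Most of the sum was Cd14, a lipopolysaccharide co-receptor, with means of 23.0, 13.8, 20.4 and 22.6 FPKM in the untreated, TGF-β1, M-MDSC and G-MDSC groups. Ly6g and Ly6c2 were highest in untreated cells, with means of 1.83 and 1.71 FPKM. Neither had a mean above 0.211 FPKM in the other groups. Csf1r had means of 0.631, 1.03, 1.08 and 1.19 FPKM in the untreated, TGF-β1, M-MDSC and G-MDSC groups. The myeloid lysozyme Lyz2 was at most 0.191 FPKM in untreated and 0.0940 FPKM in TGF-β1 libraries, but 0.651 to 2.29 FPKM with M-MDSC and 1.56 to 2.11 FPKM with G-MDSC supernatant. It passed the filter on low values only through the supernatant groups, so its difference is given as values without a test. The part of these genes in the C1qtnf3 result was not tested.

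Most markers of the cell types in which C1qtnf3 is known were low. A list of 6 cartilage genes summed to 1.70 to 1.97 FPKM in untreated cells, 2.51 to 3.01 with TGF-β1, 2.60 to 3.56 with M-MDSC and 3.01 to 3.25 with G-MDSC supernatant. Most of the sum was Sox9, with means of 1.68, 1.87, 2.14 and 2.34 FPKM in the untreated, TGF-β1, M-MDSC and G-MDSC groups. In each group 2 of the 6 cartilage genes were at 0 in all libraries, and the cartilage collagen Col2a1 had at most 19 counts in any library. The proteoglycan Acan had means of 0.136 FPKM in untreated and 0.805 FPKM in TGF-β1 cells. A list of 6 adipocyte genes summed to at most 0.415 FPKM. A list of 5 myofibroblast genes includes Acta2, the smooth muscle actin that marks the state, and all 5 were called higher with TGF-β1 than in untreated cells, as were 16.1% of all tested genes. Against TGF-β1 alone, 3 of the 5 were called lower with M-MDSC and 4 of the 5 with G-MDSC supernatant, where 4.78% and 5.56% of all tested genes were called in either direction. Acta2 had means of 1528, 2123, 1594 and 1516 FPKM in the untreated, TGF-β1, M-MDSC and G-MDSC groups.

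C1qtnf1, a secreted member made by fat and by cells of the vessel wall, moved the other way with TGF-β1. It lies on the forward strand of chr11:118428203-118449963 (GRCm38). Untreated libraries held 5.26, 5.27 and 4.97 FPKM. TGF-β1 libraries held 1.98, 1.70 and 1.69 FPKM. Every TGF-β1 library was below every untreated one, and the log2 fold change was -1.47. The untreated and TGF-β1 groups did not overlap for 3 of the 4 tested members, C1qtnf1, C1qtnf3 and C1qtnf5, nor for 46.7% of all tested genes. Nothing is read from that count, since C1qtnf3 was chosen on this contrast and C1qtnf5 passed the filter on low values through the treated groups. The antisense gene Gm11747 shares 642 of its exon bases but had 0 counts in all libraries.

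With either supernatant C1qtnf1 was close to its level with TGF-β1 alone. It was measured at 2.06, 1.95 and 2.06 FPKM with M-MDSC supernatant. With G-MDSC supernatant it was measured at 2.0, 1.95 and 2.27 FPKM. Both groups overlapped the TGF-β1 libraries and lay below all untreated ones. Against TGF-β1 the log2 fold changes were 0.15 (SE 0.087, 95% interval -0.044 to 0.34, edgeR adjusted p = 0.437) for M-MDSC and 0.18 (SE 0.087, 95% interval -0.011 to 0.38, edgeR adjusted p = 0.324) for G-MDSC supernatant. These intervals hold no difference from TGF-β1 as large as the one between TGF-β1 and untreated cells, and they do not show that the levels were the same. The supernatants differed from each other by -0.033 on the log2 scale (95% interval -0.23 to 0.16, edgeR adjusted p = 0.989).

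C1qtnf5, known from an inherited late-onset degeneration of the retina, shares a transcript with Mfrp, and its reads cannot be fully assigned. It lies on the forward strand of chr9:44107245-44109187 (GRCm38), and all 1589 of its exon bases are also Mfrp exon bases on the same strand. Untreated libraries held 0.677, 0.831 and 1.10 FPKM. TGF-β1 libraries held 3.10, 1.63 and 1.73 FPKM. The groups did not overlap and the log2 fold change was 1.35, but replicate 1 of TGF-β1 stood well above the other two. Only 1 of 3 untreated libraries reached 1 FPKM, so the gene passed the filter on low values through the treated groups, where all 9 libraries did. Counts assigned to Mfrp were 8 to 16 in untreated, 16 to 42 in TGF-β1, 15 to 23 in M-MDSC and 14 to 26 in G-MDSC libraries.

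With M-MDSC supernatant C1qtnf5 was measured at 1.65, 2.48 and 1.40 FPKM, and with G-MDSC supernatant at 1.27, 1.51 and 1.89 FPKM. These libraries overlapped those of TGF-β1 alone. The log2 fold change was -0.24 (SE 0.31, 95% interval -0.92 to 0.44, edgeR adjusted p = 0.766) for M-MDSC supernatant, and it turned to 0.11 without replicate 1 of TGF-β1. For G-MDSC supernatant it was -0.49 (SE 0.31, 95% interval -1.17 to 0.19, edgeR adjusted p = 0.486), and -0.14 without replicate 1 of TGF-β1. These intervals do not exclude changes in C1qtnf5 of the size measured for C1qtnf3.

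C1qtnf6, a stromal member that has been described as a regulator of the alternative complement pathway, was the steadiest of the 4. It lies on the reverse strand of chr15:78523346-78529627 (GRCm38), and the antisense gene Gm49490 shares 117 of its exon bases and had 75 to 180 counts. Untreated libraries held 6.82, 7.36 and 7.25 FPKM and TGF-β1 libraries 7.14, 7.69 and 6.82 FPKM. The supernatant groups held 7.07, 6.86 and 6.43 FPKM (M-MDSC) and 7.23, 7.49 and 6.83 FPKM (G-MDSC). All 4 groups overlapped. The log2 fold change was 0.072 with TGF-β1 against untreated cells (95% interval -0.081 to 0.23). It was -0.11 (95% interval -0.26 to 0.042, edgeR adjusted p = 0.467) for M-MDSC and -0.033 (95% interval -0.19 to 0.12, edgeR adjusted p = 0.882) for G-MDSC supernatant against TGF-β1.

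C1qtnf2 and C1qtnf7, both known from fat and metabolic tissue, were at or near 0. C1qtnf2 had 4 counts in replicate 1 of the untreated cells and 0 in the other 11 libraries. C1qtnf7 had 0 counts in all 12 libraries. A count of 0 allows up to 3 counts in a library, as far as counting error goes.

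The level per length placed the members in a different order after TGF-β1. In untreated cells the order was C1qtnf6 at 7.14 ± 0.285, C1qtnf1 at 5.17 ± 0.171, C1qtnf3 at 2.53 ± 0.317 and C1qtnf5 at 0.871 ± 0.216 FPKM (mean ± SD, n = 3), with no overlap between neighbours. With TGF-β1 it was C1qtnf3 at 47.3 ± 1.53, C1qtnf6 at 7.22 ± 0.442, C1qtnf5 at 2.16 ± 0.820 and C1qtnf1 at 1.79 ± 0.164 FPKM, with C1qtnf5 and C1qtnf1 overlapping. In both supernatant groups C1qtnf3 stayed first and C1qtnf6 second. C1qtnf1 and C1qtnf5 overlapped with M-MDSC supernatant, while with G-MDSC supernatant the lowest C1qtnf1 library, at 1.95 FPKM, was above the highest C1qtnf5 library, at 1.89 FPKM.

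Summed over the 6 members, the level was 15.7 ± 0.541 FPKM in untreated cells, 58.4 ± 1.53 with TGF-β1, 39.0 ± 2.41 with M-MDSC and 34.9 ± 1.34 with G-MDSC supernatant (SD, n = 3). C1qtnf3 made up 16.0% of that sum in untreated cells and 80.9% with TGF-β1, then 72.7% with M-MDSC and 69.0% with G-MDSC supernatant. C1qtnf1 fell from 32.9% to 3.07% of the sum, and C1qtnf6 from 45.4% to 12.3%, although its level was 7.14 and 7.22 FPKM in these groups. Without C1qtnf3 the sum was 13.2 ± 0.354 FPKM in untreated cells and 11.2 ± 0.998, 10.7 ± 0.709 and 10.8 ± 0.273 FPKM in the TGF-β1, M-MDSC and G-MDSC groups. These shares include the TGF-β1 contrast that chose C1qtnf3 and are given as a description.

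For each tested member, the genes with the most similar pattern over the 12 libraries were found by the root mean square difference of log2(FPKM + 1), each gene centred on its own mean. For C1qtnf3 these included Ctsw, a cathepsin, at 0.252, and Sema7a, a membrane-anchored semaphorin, at 0.422, where C1qtnf3's own deviation was 1.44. Both were low in untreated cells and high with TGF-β1, but neither was called with either supernatant. The supernatant libraries entered the likeness, so these tests are not independent of the choice of genes. Ctsw had means of 0.250, 11.5, 8.51 and 8.27 FPKM in the untreated, TGF-β1, M-MDSC and G-MDSC groups, with log2 fold changes against TGF-β1 of -0.45 (edgeR adjusted p = 0.220) and -0.50 (edgeR adjusted p = 0.161) for M-MDSC and G-MDSC supernatant. Sema7a had means of 1.32, 14.0, 12.5 and 13.3 FPKM and so stayed closer to its TGF-β1 level in the supernatant groups than C1qtnf3 did.

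The patterns nearest to C1qtnf1 were those of Lima1, an actin-binding protein, at 0.0605, Stom, a membrane scaffold protein, at 0.0621, and the homeobox gene Meis2 at 0.0646, against an own deviation of 0.465. Lima1 had means of 91.9, 42.9, 45.3 and 43.6 FPKM in the untreated, TGF-β1, M-MDSC and G-MDSC groups. For C1qtnf5, Slc7a1, Glce and Ldlrad3 were nearest at 0.177, 0.177 and 0.179 against an own deviation of 0.345, a much looser match. For C1qtnf6, whose own deviation was only 0.0600, Stard3, Syvn1 and Smarcd1 were nearest at 0.0391 to 0.0418, which is little more than a list of steady genes. These measures share libraries and depth and carry no test.

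Other genes of the pathway were read from a list of 42, namely 25 further genes with a C1q domain, 8 known receptors or binding partners and 9 genes of the AMP-activated kinase (AMPK) and its adaptors, through which adiponectin and several family members signal. Of these, 16 were tested, that is 5, 4 and 7 of the 3 kinds. With TGF-β1 against untreated cells, 1 of the 16 was higher and 7 were lower, with 16.1% and 17.9% of all tested genes called higher and lower. Their median log2 fold change was -0.28, against 0.00048 over all tested genes. The 7 and the median include Cd93, which passed the filter on low values without any TGF-β1 library. Nothing is read from its call in this comparison.

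Of the C1q domain genes, 3 of 5 fell with TGF-β1 and none rose, beside 17.9% and 16.1% of all tested genes. The extracellular matrix glycoprotein Emilin2 fell most, from 5.76 ± 0.588 to 1.09 ± 0.0384 FPKM (SD, n = 3), with a log2 fold change of -2.33 (edgeR adjusted p = 6.75e-08). The short-chain collagen Col8a1 changed by -0.65 (edgeR adjusted p = 6.93e-05) and the elastic fibre protein Emilin1 by -0.31 (edgeR adjusted p = 0.000608). None of the 5 was called with M-MDSC or G-MDSC supernatant against TGF-β1, where 4.78% and 5.56% of all tested genes were called, and Emilin2 stood at 1.21 and 1.23 FPKM with M-MDSC and G-MDSC supernatant. Adiponectin itself, Adipoq, had 0 counts in all libraries. Erythroferrone, Erfe, another family member, was not tested for its low level, but was singled out after its values were seen, with 0 counts in all 3 untreated libraries and 28 to 62, 19 to 41 and 46 to 67 counts in the TGF-β1, M-MDSC and G-MDSC libraries.

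Of the receptors and binding partners, 2 of 4 were called lower with TGF-β1 and none higher, beside 17.9% and 16.1% of all tested genes, and 1 of the 2 was Cd93, which passed the filter on low values without any TGF-β1 library. T-cadherin (Cdh13), which binds adiponectin multimers at the cell surface, had means of 10.3 and 5.67 FPKM in untreated and TGF-β1 cells, a log2 fold change of -0.80 (edgeR adjusted p = 2.26e-06), and stood at 5.64 and 5.52 FPKM with the M-MDSC and G-MDSC supernatants. The adiponectin receptor Adipor1 had means of 18.1 and 18.2 FPKM in untreated and TGF-β1 cells, and its log2 fold change of 0.069 did not pass (edgeR adjusted p = 0.213).

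Cd93, a C-type lectin-like receptor first described in binding C1q, was the 1 gene of the 16 tested that was called with a supernatant, against 4.78% of all tested genes for M-MDSC and 5.56% for G-MDSC supernatant, so the share of related genes called was near the background. It ranged over 1.77 to 2.08 FPKM in untreated cells, 0.530 to 0.639 with TGF-β1, 0.951 to 1.04 with M-MDSC and 0.994 to 1.49 with G-MDSC supernatant. The TGF-β1 libraries were the lowest of all, and the supernatant libraries lay between them and the untreated ones. No TGF-β1 library reached 1 FPKM, and all 3 untreated libraries did, which by themselves met the filter on low values, so the log2 fold change of -1.63 with TGF-β1 against untreated cells is given without a test. The untreated libraries are not part of the comparisons of the supernatants with TGF-β1. Against TGF-β1 it was 0.72 (SE 0.14, edgeR adjusted p = 0.0159) with M-MDSC and 0.98 (SE 0.14, edgeR adjusted p = 0.00220) with G-MDSC supernatant. Cd93 is also made by endothelial and myeloid cells. The myeloid sum given above, mostly Cd14, was higher in untreated and supernatant libraries than with TGF-β1. The part of such cells was not tested.

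Of the AMPK genes and adaptors, 1 of 7 rose and 2 fell with TGF-β1, which is near the 16.1% and 17.9% of all tested genes called higher and lower. The regulatory subunit Prkab2 rose by 0.41 (edgeR adjusted p = 0.0149), while the regulatory subunit Prkag2 changed by -0.97 (edgeR adjusted p = 1.65e-06) and the adaptor Appl2 by -0.32 (edgeR adjusted p = 0.0259) on the log2 scale. The catalytic subunit Prkaa1 did not pass, with 0.073 (edgeR adjusted p = 0.359). Between the supernatants 0 of the 16 related genes were called.

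**Figure D3:**
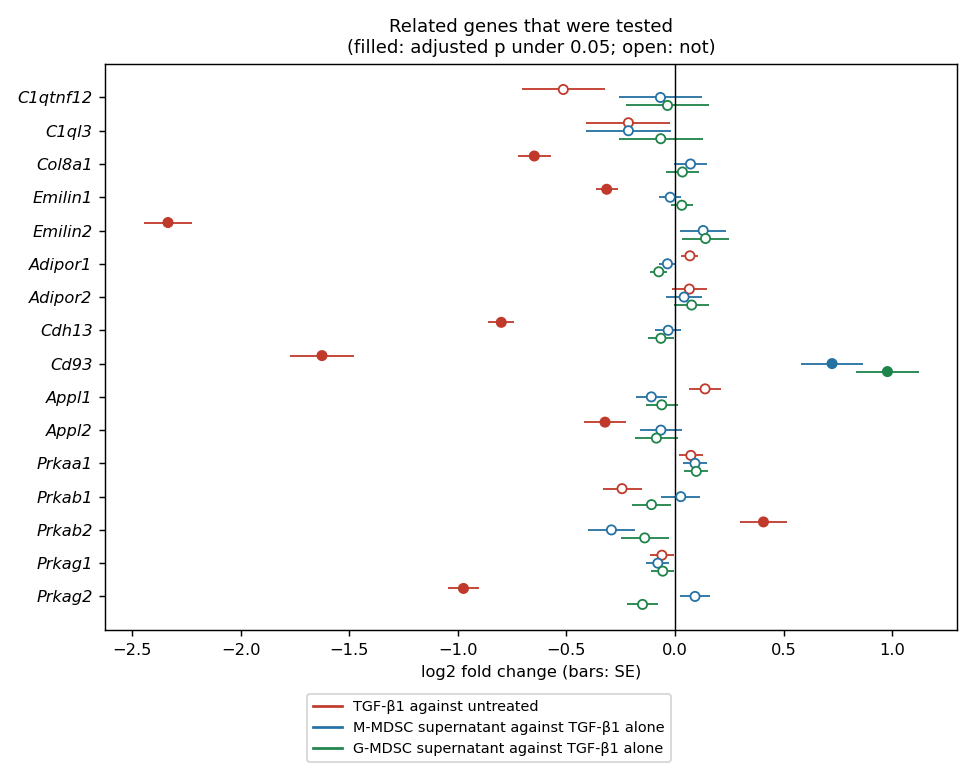
Log2 fold changes (x axis, bars are SE) of the 16 tested related genes (y axis) for TGF-β1 against untreated cells and for each supernatant against TGF-β1 alone, with filled points where the adjusted p was under 0.05. Among these 16 genes Cd93 alone has filled points for the supernatants, at 0.72 and 0.98, and Emilin2 is farthest to the left with TGF-β1, at -2.33. Cd93 passed the filter on low values without any TGF-β1 library, so its filled point for TGF-β1 against untreated cells is not read.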

How the data were processed

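The authors sequenced poly(A) RNA as strand-marked paired reads. The submitters' processing notes name cutadapt 1.9, HISAT2 2.0.4, StringTie 1.3.4d, edgeR and DESeq2, and the study's methods give GRCm38. The counting tool, its strand setting and the annotation release are not given in the sources used here. One deposited table holds counts per gene and FPKM computed by the authors, who wrote a count of 0 as 1e-04 FPKM, read here as 0. Of low deposited counts up to 12, 44.3% were multiples of 4.

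Counts of the 12 libraries were fitted in one model with edgeR 4.0.16 (quasi-likelihood test, TMM scaling factors 0.978 to 1.03, R 4.3.3) over 12016 of 55401 genes with at least 1 FPKM in 3 libraries. A gene was called at a Benjamini-Hochberg adjusted p under 0.05. Groups and replicates came from the labels. FPKM are given as mean ± SD of 3 libraries. The floor of 3 counts covers counting error only. The members and gene lists were chosen with earlier results of these data known. Text names the 6 members, related genes past the threshold (at most 8 a comparison) and the 3 genes nearest to each member, of which 1 is not reported here. Alternatives were DESeq2 1.42.0, limma 3.58.1 on log2(FPKM + 1) or with a pseudocount of 0.1, another scaling, 2 other filters, counts divided by 4, fits of only the groups compared, a replicate block, leaving out each library, and a rule of fold above 2 with an unadjusted p under 0.05. Promoters came from RefSeq (GRCm38.p6).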

Additional observations from a re-analysis of the deposited data

How the results depend on the processing

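C1qtnf3 stayed lower with either supernatant than with TGF-β1 and past the adjusted threshold under every alternative of the test: its log2 fold change ran from -0.81 to -0.72 (adjusted p 2.28e-15 to 0.00244) for M-MDSC and from -1.04 to -0.94 (adjusted p 6.86e-27 to 0.000412) for G-MDSC supernatant. Between the supernatants it ran from 0.19 to 0.28 (adjusted p 0.308 to 0.933). Under the rule of a fold above 2 with an unadjusted p under 0.05, 0 members were called with M-MDSC and 0 with G-MDSC supernatant, in place of 1 each, since neither fold reached 2. The G-MDSC value of -0.996 lay at the edge of that rule: it was -1.02 without TGF-β1 replicate 1, -1.04 without G-MDSC replicate 1 and -1.002 without G-MDSC replicate 2, each past a fold of 2. Limma on log2(FPKM + 1), which shrinks low levels, gave -1.14 for C1qtnf1, 3.78 for C1qtnf3 and 0.73 for C1qtnf5 with TGF-β1 against untreated cells. Leaving out 1 library at a time gave 1 called member for each supernatant against TGF-β1 and 0 between supernatants. With TGF-β1 against untreated cells the leave-one-out values ran from -1.54 to -1.43 for C1qtnf1, 4.22 to 4.39 for C1qtnf3, 1.00 to 1.55 for C1qtnf5 and 0.022 to 0.10 for C1qtnf6. Of 252 alternative values of single members 247 kept their direction and their side of the threshold and 5 turned direction, none of them past the threshold. Many of the 252 could hardly change, since leaving out a library of a group not compared leaves the log2 fold change nearly the same. C1qtnf5 with M-MDSC supernatant against TGF-β1 turned to 0.11 without TGF-β1 replicate 1 (leave-one-out range -0.52 to 0.11). C1qtnf6 with G-MDSC supernatant against TGF-β1 turned to 0.017 without TGF-β1 replicate 2 and 0.0010 without G-MDSC replicate 3 (range -0.062 to 0.017). Between the supernatants, C1qtnf1 turned to 0.038 without G-MDSC replicate 3 (range -0.076 to 0.038) and C1qtnf5 to -0.025 without M-MDSC replicate 2 (range -0.025 to 0.41).

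Same-numbered libraries of different groups did not deviate together: their correlation averaged -0.0044 over 18 pairs (highest 0.0789). Libraries with different numbers averaged 0.0023 over 36 pairs (highest 0.173). No pairing by number was seen, but this does not exclude one, and the labels do not state it. With the replicate block, called members stayed at 1, 1 and 0, and C1qtnf3 had -0.76 (adjusted p 0.00224) and -0.995 (adjusted p 0.000412) against TGF-β1 for M-MDSC and G-MDSC supernatant. The intervals of C1qtnf5 were the widest of the 4 tested members, and they do not exclude changes of the size measured for C1qtnf3.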
